A study of Mus musculus with 15 samples.

Results

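The genes described here are 36 transcripts that mark sympathetic neurons, followed in macrophages sorted from 6 mouse tissues. They were chosen by symbol from knowledge of sympathetic neurons and with earlier results of these data known. They are 36 of the 24525 genes in the deposited table of raw counts. Of the 36 symbols, 35 are in the authors' DNA-corrected count table, which was the main measurement, and Elavl4 is in the raw count and RPKM tables. The filter on low counts was passed by 31 genes, which were tested. Gal, Vip, Chga and Ret did not pass it and are given as levels.

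F4/80- and CD45-positive cells of C57BL/6J mice were sorted and profiled ex vivo by low-input sequencing of total RNA, in 15 libraries. The groups were sympathetic nerve fibers dissected from inguinal fat (SAM fibers, 2 libraries), sympathetic ganglia, SCG in the labels (SAM ganglia, 3), subcutaneous fat (sATM, 2), visceral fat (vATM, 2), brain (microglia, 3) and spleen (SpM, 3). SAM stands for sympathetic-associated macrophages, the cells of ganglia and fibers together. Tissues came from 10 mice, and the labels give no age or sex, no treatment, and do not say that the libraries are from different animals. Spread between libraries, which may be technical, is thus all that the p-values measure. Every title carries the letters ND, which the labels do not explain. Digestion differed by tissue: brain, spleen and fat were in collagenase for 30 minutes; for fibers 30 minutes of hyaluronidase preceded 15 minutes of collagenase, and for ganglia 10 minutes of collagenase preceded 30 minutes of trypsin, all at 37 °C. Tissue and digestion cannot be told apart.

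Sympathetic neurons convert tyrosine to dopamine and then to norepinephrine, store it in dense-core vesicles together with neuropeptide Y and granins, and release it along axons that run through fat, spleen and blood vessels. Their cell bodies lie in ganglia, while axons hold part of the RNA far from the cell body. The counts do not separate transcripts carried along from neurons from transcripts made by the sorted cells. In bulk libraries fewer neuronal fragments or cells and less RNA from each cannot be told apart.

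The promoters of Th and Dbh are shown because these genes encode the enzymes that define a noradrenergic neuron. The sequences are the 250 bases before the start of the RefSeq gene (GRCm38.p6), in lower case, with any full cAMP response element (TGACGTCA, searched on both strands) in capitals. Th lies on chromosome 7 and the stretch is chr7:142899996-142900245 on the minus strand. Dbh lies on chromosome 2 and the stretch is chr2:27165257-27165506 on the plus strand.
Th: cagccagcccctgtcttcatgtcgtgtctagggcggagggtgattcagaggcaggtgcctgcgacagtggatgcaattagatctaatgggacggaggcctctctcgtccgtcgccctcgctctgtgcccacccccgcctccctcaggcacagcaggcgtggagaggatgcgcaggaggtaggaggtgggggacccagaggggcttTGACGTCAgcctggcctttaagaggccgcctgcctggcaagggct
Dbh: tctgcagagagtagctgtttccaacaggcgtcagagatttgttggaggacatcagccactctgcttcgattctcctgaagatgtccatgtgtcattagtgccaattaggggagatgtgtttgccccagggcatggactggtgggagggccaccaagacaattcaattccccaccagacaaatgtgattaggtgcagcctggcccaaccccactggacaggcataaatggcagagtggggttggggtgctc
The Th stretch held 1 full element, with its first base 45 bases before the gene's start, and the Dbh stretch held none. Promoters were found for 26 of the 36 genes (33 promoters). The full element was in 3 of those 33, those of Th, Chgb and Scg2, against 1.55% of 32851 mouse promoters. The shorter core TGACG, which every full element also contains, was in 13 of the 33 and in 17.8% of all promoters. A match is a stretch of letters, and binding was not measured in these libraries.

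Corrected counts totalled 2.546 to 12.52 M per library (M for mega), so that 3 counts correspond to 0.249 to 0.897 CPM. CPM here is corrected counts per M of library total after TMM scaling. The 18 core macrophage genes summed to 14000 to 23700 CPM in all 6 groups, on the same scale as the neuronal genes. Genomic DNA in the libraries was read from 1107 olfactory receptor genes, which macrophages are not known to transcribe: their raw counts per kb of gene ran from 0.25 in SAM ganglia 1 to 18.0 in SAM fibers 1. The other libraries over 5 counts per kb were SAM ganglia 3 (7.5), Microglia 2 (7.21) and SAM fibers 2 (5.51).

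Neuronal RNA followed tissue. The 35 genes together summed to 1770 and 836 CPM in the 2 fibers libraries and to 308 to 382 CPM in ganglia. They summed to 183 and 91.4 CPM in sATM, 138 to 160 CPM in microglia, 90.7 and 66.5 CPM in vATM and 19.1 to 27.7 CPM in spleen. The ranges of these sums in fibers, ganglia, vATM and spleen did not touch one another, while those of sATM and microglia overlapped. In vATM and microglia a few genes made up much of the sum. The vATM means were 21.5 CPM for Gch1, 16.7 for Rtn1 and 16.6 for Dpysl3, within a mean sum of 78.6. In microglia they were 53 for Rtn1 and 26.9 for Camk2n1, within 149. Stmn2 and Npy did not set vATM (means 1.39 and 0.966 CPM) apart from spleen (1.88 and 0.828). Subcutaneous fat, from which the fibers were dissected, held less of this RNA than the fibers and more than visceral fat, although sATM 2 (91.4 CPM) and vATM 1 (90.7 CPM) were nearly equal; the depots were not tested against each other.

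**Figure D1:**
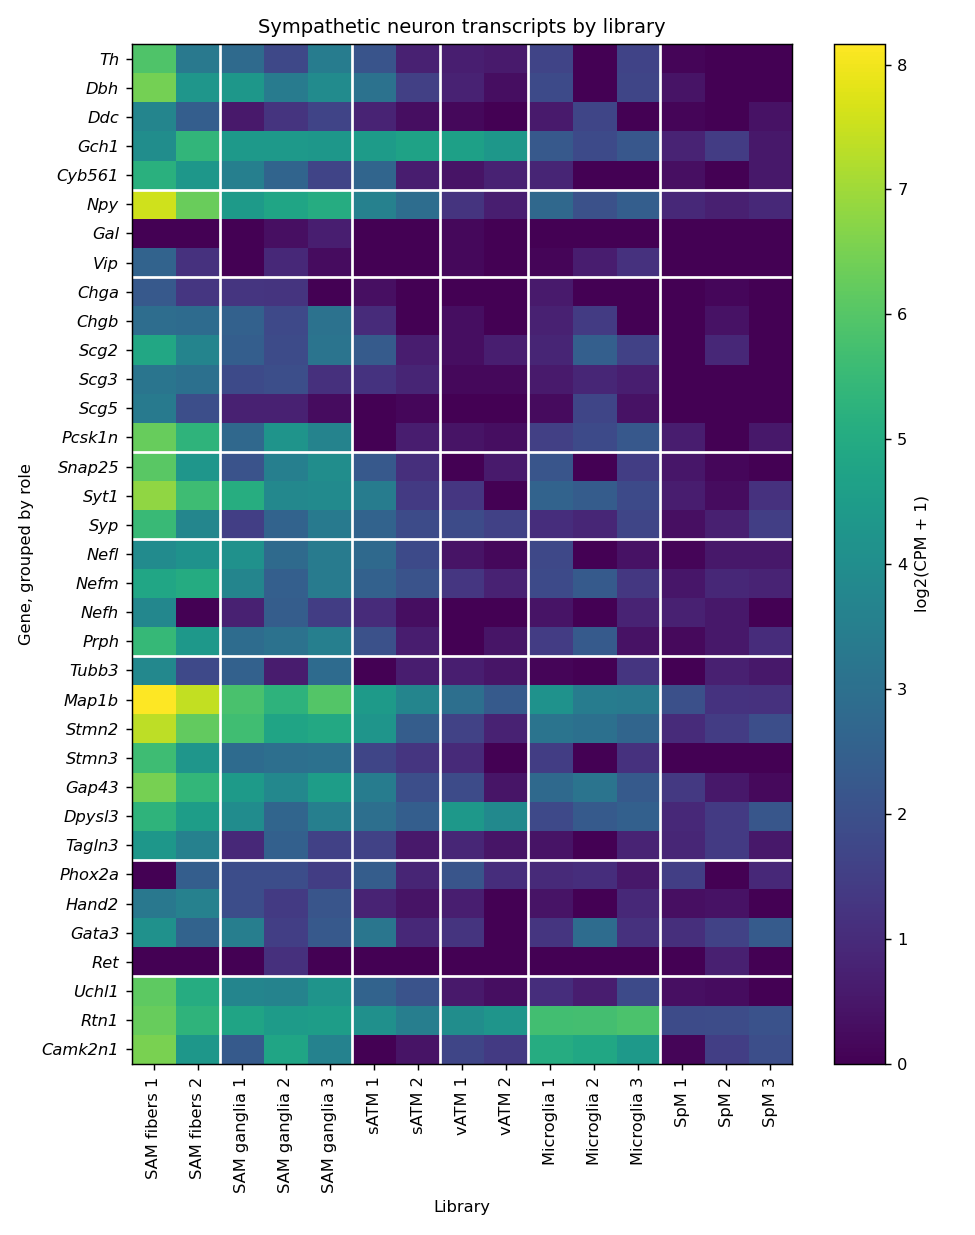
Levels of the 35 genes (rows, grouped by role with white lines between roles) in each of the 15 libraries (columns, grouped by tissue), as log2(CPM + 1). The fibers libraries are brightest in most rows, while Rtn1 and Camk2n1 are bright in microglia and Gch1 is near 20 CPM in ganglia and both fat depots.

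In the comparison of SAM with the other macrophages (mean of ganglia and fibers minus the mean of the other 4 groups on the log2 scale), 29 of the 31 tested genes rose and none fell. A gene counts as called, and as having risen or fallen, where its log2 fold change was 1 or more in size and its adjusted p under 0.05 (edgeR quasi-likelihood test, Benjamini-Hochberg over 15289 genes). Of all genes tested, 5.71% were called higher. The median log2 fold change was 4.05 over the 31 genes and 0.02 over all genes. All 5 SAM libraries were above all 10 other libraries for 13 of the 31 genes, against 0.798% of all genes. By role, all 5 genes of catecholamine synthesis, the 5 tested granule genes, all 3 genes of vesicle release, all 4 intermediate filament genes and all 7 other axonal genes rose. Npy, the single tested neuropeptide, rose too, as did 1 of 3 tested genes of sympathetic specification and all 3 remaining neuronal genes.

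Among the enzymes, Th, the rate-limiting enzyme that makes the dopamine precursor, had 59.2 and 8.95 CPM in fibers. It had 6.00, 2.39 and 9.83 CPM in the ganglia libraries, 3.31 and 0.69 in sATM, 0.599 and 0.492 in visceral fat, 2.16, 0 and 2.13 in microglia and 0.0832, 0 and 0 in spleen. SAM fibers 1 stood far above every other library, and the lowest ganglia library lay below the higher sATM library, so SAM and the rest overlapped. The log2 fold change was 4.72 ± 0.67 (SE; edgeR adjusted p = 0.000223). Dbh, which converts dopamine to norepinephrine, had 87.3 and 18.5 CPM in fibers, 18.9, 9.56 and 14.2 in the ganglia libraries, 7.38 and 1.95 in sATM, 0.718 and 0.246 in visceral fat, 2.60, 0 and 2.28 in microglia and 0.333, 0 and 0 in spleen. All 5 SAM libraries were above the 10 others, with a log2 fold change of 4.94 ± 0.59 (edgeR adjusted p = 4.41e-05).

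Cyb561, an electron carrier of the vesicle membrane that keeps ascorbate available to Dbh, rose by 4.39 ± 0.71. It had 35.3 and 19.2 CPM in fibers, 2.21 to 10.6 CPM in ganglia and 5.35 CPM in sATM 1, so the groups overlapped. Ddc, which makes dopamine, had 12.0 and 4.37 CPM in fibers and at most 2.25 CPM elsewhere; its change of 3.66 ± 1.01 (edgeR adjusted p = 0.0287) was lost on leaving out 1 library in 6 of 15 cases. Gch1, the first enzyme of the pathway to the cofactor of Th and of nitric oxide synthases, did not follow the other enzymes. It had 15.2 and 40.2 CPM in fibers, 19.9, 20.1 and 19.1 in the ganglia libraries, 21.1 and 25.2 in sATM and 24.1 and 18.9 in vATM, against 2.53 to 3.89 in microglia and 0.456 to 1.75 in spleen. Ganglia and fat overlapped, and brain and spleen were below both, with a log2 fold change of 1.86 ± 0.29 in SAM against the rest.

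Npy, the co-transmitter of most sympathetic vasoconstrictor neurons, was the gene with the smallest adjusted p (4.64 ± 0.28, edgeR adjusted p = 2.55e-08). Its levels were 189 and 78.5 CPM in fibers, 20.8, 27.1 and 31.9 in the ganglia libraries, 10.9 and 6.55 in sATM, 1.32 and 0.614 in visceral fat, 5.80, 3.09 and 4.41 in microglia and 0.656 to 0.915 in spleen. The ranges of fibers, ganglia, sATM and microglia were apart, in that order, and those of vATM and spleen overlapped. The peptides of other autonomic neurons were near the limit of counting. Vip, of cholinergic sympathetic and parasympathetic neurons, had 5.08 and 1.25 CPM in fibers and at most 1.22 elsewhere, and galanin (Gal) had at most 0.602 CPM in any library.

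The granule genes encode the proteins stored with norepinephrine. Pcsk1n, an inhibitor of a prohormone convertase, had 76.2 and 38.7 CPM in fibers, 5.77, 17.7 and 11.6 in the ganglia libraries, 1.90 to 3.80 in microglia and 0 to 0.582 in the fat and spleen libraries. It had the largest log2 fold change of the 31 genes, 5.45 ± 0.49 (edgeR adjusted p = 2.06e-06), and no overlap between SAM and the rest. Scg2, a granin that is cut into secretoneurin, had 29.0 and 11.9 CPM in fibers and 2.66 to 7.82 in ganglia, and rose by 3.44 ± 0.73 with Microglia 2 (4.49) and sATM 1 (4.07) inside the ganglia range. Chgb (4.30 ± 1.05), Scg3 (4.33 ± 0.74) and Scg5 (4.68 ± 1.08), further granins and granule chaperones, had at most 9.27 CPM in any library. After rounding, Scg3 was at 0 in all spleen libraries and Scg5 in all spleen and vATM libraries, so their fold sizes are not well determined. Scg5 averaged 6.09 CPM in fibers and 0.519 in ganglia, below microglia (0.907). Its call was lost in 4 of 15 cases of leaving out 1 library. Chga, chromogranin A, was not tested; it had 3.89 and 1.46 CPM in fibers, 1.39, 1.33 and 0 in ganglia and at most 0.519 elsewhere.

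Of the vesicle release genes, Syt1, the calcium sensor of fast release, had 110 and 48.3 CPM in fibers, 33.2, 13.0 and 14.0 in the ganglia libraries, 9.68 and 1.61 in sATM, 2.58 to 5.11 in microglia and at most 1.44 in vATM and spleen (4.47 ± 0.52). SAM and the rest did not overlap. Snap25, a membrane fusion protein, had 66.1 and 18.7 CPM in fibers but 3.23 in SAM ganglia 1 beside 10.6 and 15.0 in the other ganglia libraries (4.82 ± 0.67), so the groups overlapped. Syp, a vesicle membrane protein, rose by 2.76 ± 0.50, with SAM ganglia 1 (1.85 CPM) below both sATM libraries (5.09 and 2.64).

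The filament genes encode neurofilament subunits and peripherin (Prph). Prph, typical of peripheral neurons, had 43.0 and 19.4 CPM in fibers, 6.46, 7.44 and 10.6 in ganglia and at most 3.93 elsewhere, without overlap (4.37 ± 0.61). Nefl, the light neurofilament subunit (4.05 ± 0.62), was as high in SAM ganglia 1 (16.4 CPM) as in fibers (14.3 and 16.9). Nefm, the medium subunit (3.25 ± 0.37), had 27.5 and 31.4 CPM in fibers and 4.52 to 12.2 in ganglia, with sATM 1 (4.84) inside the ganglia range. Nefh, the heavy subunit, had 12.6 CPM in SAM fibers 1 and 0 in SAM fibers 2 and in all vATM libraries. Its fold change of 4.20 ± 1.19 (edgeR adjusted p = 0.0338) turned to -0.02 without SAM fibers 1.

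Map1b and Stmn2, of the axonal genes, were among the most counted in SAM. Map1b, a microtubule protein of growing axons, had 286 and 171 CPM in fibers, 55.9, 37.6 and 62.8 in the ganglia libraries, 20.9 and 12.2 in sATM, 6.82 and 3.93 in visceral fat, 17.0, 9.82 and 9.12 in microglia and 1.22 to 2.99 in spleen (4.02 ± 0.27, edgeR adjusted p = 7.66e-08). Stmn2, a tubulin-binding protein of axons, had 162 and 72.0 CPM in fibers, 50.1, 26.4 and 29.7 in the ganglia libraries, 18.1 and 4.25 in sATM, 2.04 and 0.737 in visceral fat, 7.87, 7.02 and 5.32 in microglia and 0.998 to 2.89 in spleen (4.11 ± 0.36). In both genes SAM was above every other library and sATM overlapped microglia. Gap43, of growth cones (3.77 ± 0.44), and Stmn3, a relative of Stmn2 (5.36 ± 0.68), were also without overlap. Stmn3 was at 0 in all spleen libraries after rounding, so the size of its fold is not well determined. Tubb3, a neuronal tubulin (3.67 ± 1.01), and Tagln3, an actin-associated protein (3.06 ± 0.67), overlapped, and the call for Tubb3 was lost in 7 of 15 cases of leaving out 1 library. Dpysl3, a growth cone protein, had 38.3 and 22.3 CPM in fibers, and its vATM libraries (19.4 and 13.8) overlapped ganglia (5.31 to 14.8); it rose by 1.77 ± 0.35.

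**Figure D2:**
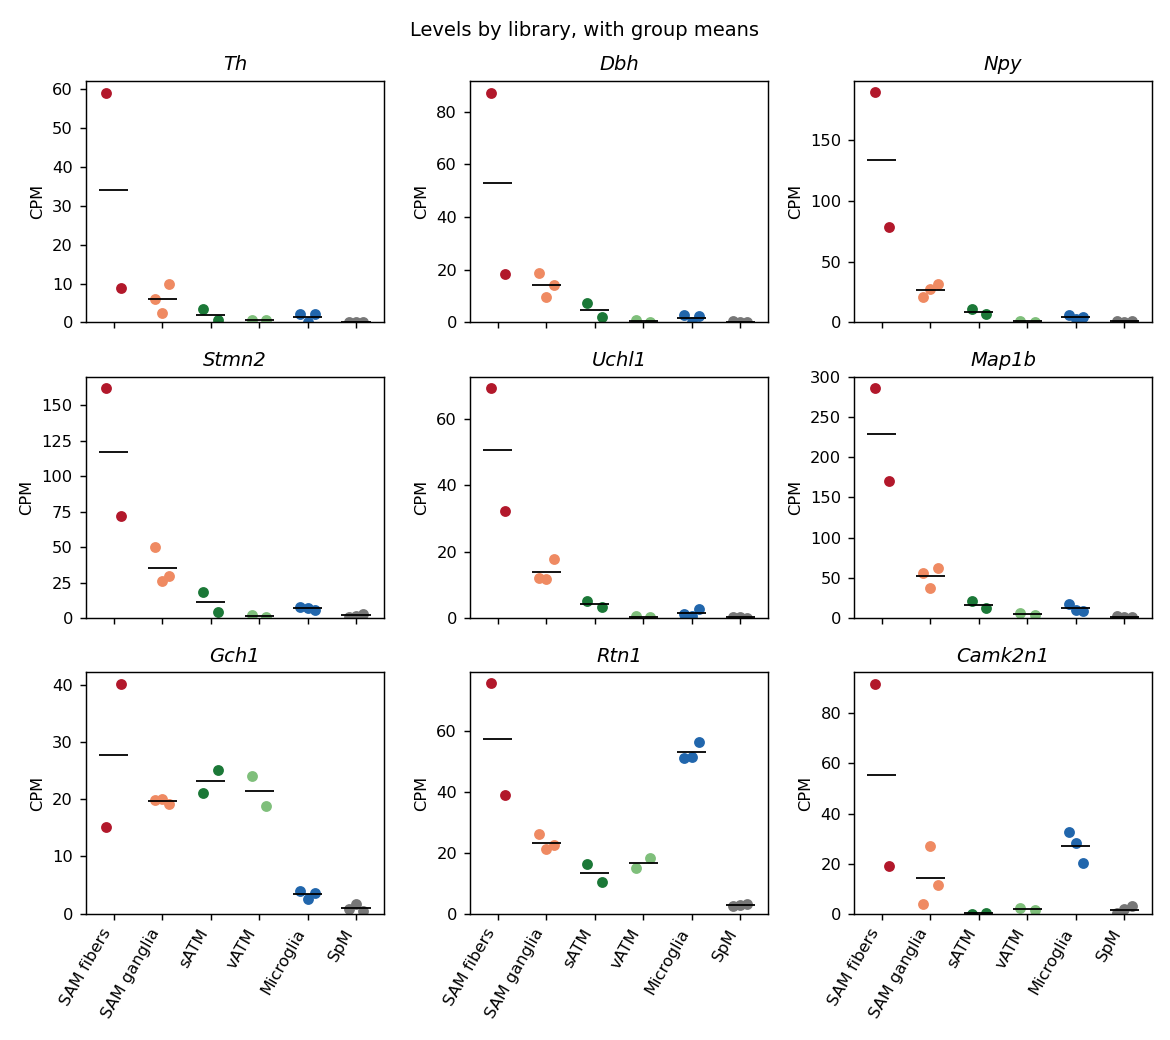
CPM of 9 genes in each library (points) with group means (black lines), for the 6 tissues on the horizontal axis. Group means of the upper 6 genes fall from fibers to ganglia to the other tissues, while Gch1 stays near 20 CPM in ganglia and fat, and Rtn1 and Camk2n1 are high in microglia.

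The transcription factors of sympathetic specification were the weakest group. Hand2 rose by 3.80 ± 0.87, with 8.67 and 11.0 CPM in fibers, 1.59 to 3.41 in ganglia and at most 0.912 elsewhere. Phox2a, which switches on the noradrenergic programme, was not called (0.67 ± 0.97, edgeR adjusted p = 0.656); it had 0 and 4.37 CPM in fibers, 1.81 to 2.79 in ganglia and up to 4.33 in sATM 1. Gata3, which T cells also express, was not called either (1.80 ± 0.74, edgeR adjusted p = 0.129), with 1.86 to 16.4 CPM in SAM libraries and 8.15 in sATM 1. Ret, a receptor of glial-derived neurotrophic factors, was listed at 0 in every library but SAM ganglia 2 (1.20) and SpM 2 (0.656). Elavl4, a neuronal RNA-binding protein, had 6.82 and 2.21 RPKM in fibers, 0.227 to 1.90 in the ganglia libraries, 2.19 to 2.78 in microglia and at most 0.422 in fat and spleen. On log2(RPKM + 0.1) values, where limma was used, it was 2.40 ± 0.67 higher in SAM (adjusted p = 0.0396), and microglia lay above the ganglia range.

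Uchl1, an abundant neuronal deubiquitinase, had 69.3 and 32.3 CPM in fibers, 12.0, 11.7 and 17.7 in the ganglia libraries, 5.09 and 3.22 in sATM and at most 2.58 elsewhere (5.02 ± 0.40, edgeR adjusted p = 6.26e-07). Rtn1 and Camk2n1 departed from this order. Rtn1, a reticulon of the endoplasmic reticulum, had 75.6 and 39.1 CPM in fibers, 26.3, 21.3 and 22.5 in ganglia and 51.1, 51.4 and 56.5 in microglia, against 10.3 to 18.3 in fat and 2.66 to 3.20 in spleen. Camk2n1, an inhibitor of calcium/calmodulin kinase II, had 91.8 and 19.2 CPM in fibers, 3.92, 27.1 and 11.4 in the ganglia libraries, 32.5, 28.1 and 20.2 in microglia and at most 2.89 elsewhere. For Rtn1 microglia did not overlap ganglia, and for Camk2n1 they did.

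**Figure D3:**
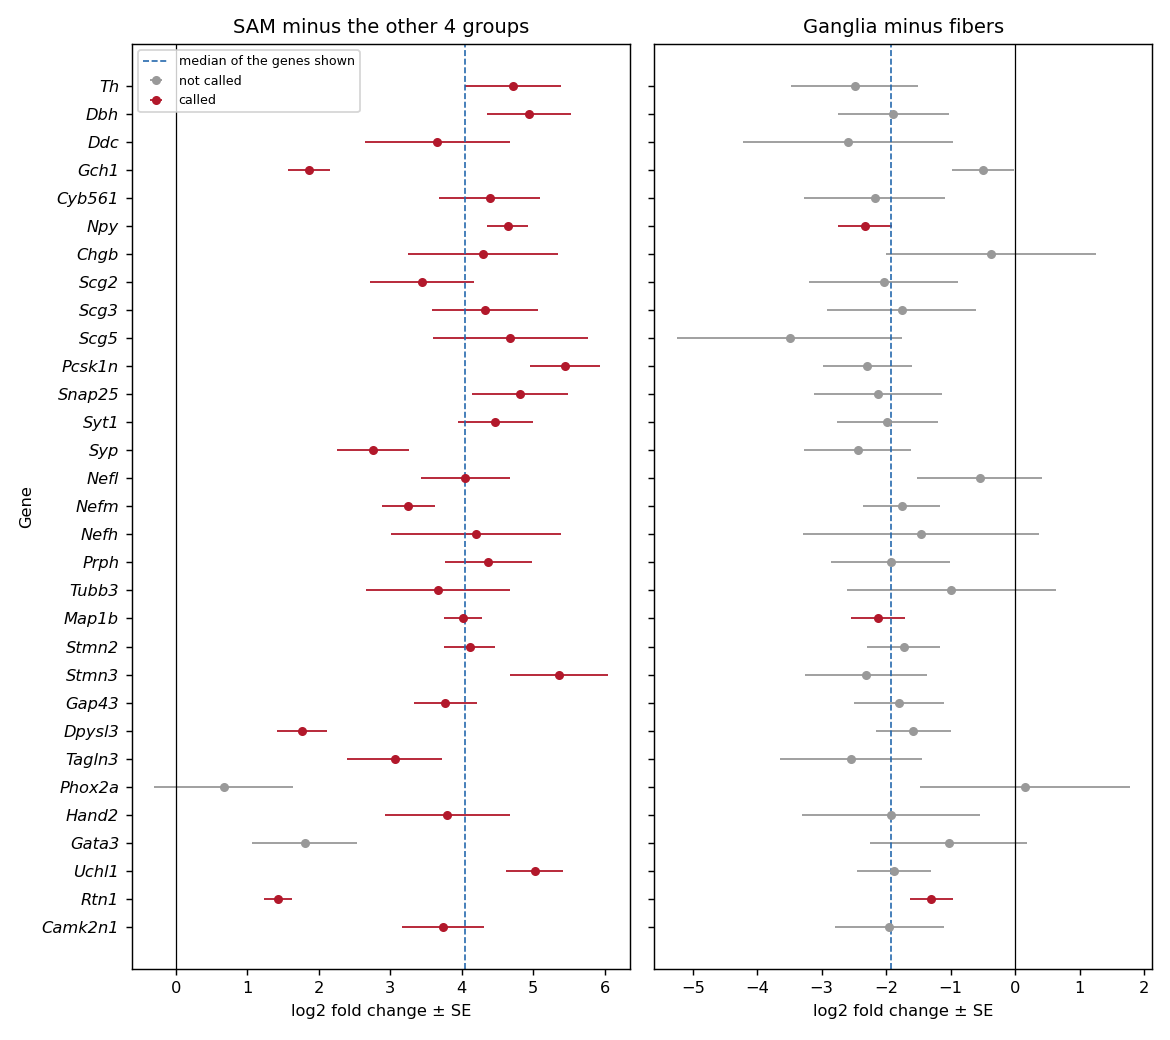
Log2 fold change with its SE for the 31 tested genes in SAM minus the other 4 groups (left) and in ganglia minus fibers (right). Red points were called, grey points were not, and the dashed line is the median of the genes shown, 4.05 on the left and -1.92 on the right; Gch1, Dpysl3, Rtn1, Gata3 and Phox2a lie lowest on the left.

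Fibers against the subcutaneous fat around them gave 10 genes that rose and none that fell, with 1.85% of all genes called higher. They were Npy (3.95 ± 0.52), Pcsk1n (7.24 ± 1.07), Syt1 (3.87 ± 0.99), Nefm (2.88 ± 0.71), Map1b (3.80 ± 0.53), Stmn2 (3.43 ± 0.69), Gap43 (3.42 ± 0.86), Uchl1 (3.62 ± 0.72), Rtn1 (2.11 ± 0.39) and Camk2n1 (7.83 ± 1.42). The median over the 31 genes was 3.62, and for 27 of them both fibers libraries were above both sATM libraries. With 2 libraries against 2 such separation is common: it held for 26.6% of all genes. Th (4.15 ± 1.25, edgeR adjusted p = 0.0708) and Dbh (3.54 ± 1.07, edgeR adjusted p = 0.0721) were not called. The count was 5 without SAM fibers 1, 17 without SAM fibers 2, 6 without sATM 1 and 3 without sATM 2.

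Ganglia, which hold the neuronal cell bodies, had lower values than fibers. No gene rose, with 2.85% of all genes called higher, and 3 fell, with 1.27% called lower. They were Npy (-2.33 ± 0.42, edgeR adjusted p = 0.00556), Map1b (-2.13 ± 0.42, edgeR adjusted p = 0.0102) and Rtn1 (-1.30 ± 0.33, edgeR adjusted p = 0.0395). The median was -1.92 over the 31 genes and 0 over all genes. For 21 genes all 3 ganglia libraries were below both fibers libraries, which held for 16.9% of all genes. Of the 31 genes, 27 lay within 1 SE of the median, and 30 within 2 SE. The SE hold spread between libraries, which the genes can share, so this closeness cannot show a common fold change. The count of called genes was 1 without SAM fibers 1 or without SAM ganglia 2, 10 without SAM fibers 2, and 0 without the 3 libraries of highest DNA background. The call for Rtn1 was lost in 14 of 15 cases of leaving out 1 library, and those for Npy and Map1b in 1 each. On raw counts Npy was 0.16, with the sign turned.

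Against microglia, 7 genes rose in ganglia (4.91% of all genes called higher) and 1 fell (2.03% called lower). Npy (2.55 ± 0.41), Map1b (2.10 ± 0.40), Stmn2 (2.38 ± 0.54), Uchl1 (3.21 ± 0.60), Gch1 (2.52 ± 0.47), Nefl (3.37 ± 0.97) and Cyb561 (4.10 ± 1.19) rose, and Rtn1 fell by 1.18 ± 0.31. Dbh was at 2.99 ± 0.88 (edgeR adjusted p = 0.0506) and Th at 1.97 ± 0.95 (edgeR adjusted p = 0.310). The call was lost in 11 of 15 cases of leaving out 1 library for Nefl, 9 for Cyb561, 7 for Rtn1 and 2 for Stmn2, and in none for Npy, Map1b, Uchl1 and Gch1. The count was 4 without Microglia 3 and 5 without Microglia 2, SAM ganglia 1 or SAM ganglia 2.

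The 2 fat depots together against spleen gave 8 genes that rose, with 6.09% of all genes called higher. Gch1 (4.46 ± 0.51), Rtn1 (2.37 ± 0.32), Map1b (2.30 ± 0.42), Dpysl3 (2.29 ± 0.54), Uchl1 (2.71 ± 0.75) and Npy (1.79 ± 0.46) were among them. Scg3 and Stmn3 were called as well and were at 0 in all 3 spleen libraries after rounding, so no fold is given. The call for Scg3 was lost in 14 of 15 cases of leaving out 1 library and that for Stmn3 in 4. Raw counts of Stmn3 in spleen were 22, 56 and 85, or 3.67, 2.32 and 2.28 times the olfactory level, and on raw counts its log2 fold change was -0.39. The share called was 8 of 31 genes, and the count ran from 3 (without vATM 1) to 9 on leaving out 1 library. It was 4 without SpM 1 or SpM 2 and 5 without SpM 3 or sATM 1.

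Microglia against spleen gave 12 genes that rose, with 5.31% of all genes called higher. Rtn1 rose by 4.21 ± 0.35, Camk2n1 by 4.12 ± 0.90 and Map1b by 2.66 ± 0.44. Th (4.87 ± 1.36), Npy (2.43 ± 0.46), Stmn2 (1.88 ± 0.58), Gap43 (2.87 ± 0.75), Pcsk1n (2.89 ± 0.79), Uchl1 (2.95 ± 0.74), Gch1 (1.75 ± 0.50), Scg3 and Stmn3 made up the rest. The call was lost in 9 of 15 cases of leaving out 1 library for Stmn2, 8 for Gch1 and 5 each for Th and Scg3. The count was 7 without Microglia 3 or SpM 2 and 5 without SpM 3.

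DNA background moved with the fibers levels. SAM fibers 1 had both the highest olfactory receptor counts and the highest sum of neuronal genes, and its corrected counts were at least 5 times the olfactory level per kb for 12 of 35 genes. That number was 32 in SAM ganglia 1, 28 in SAM ganglia 2, 30 in Microglia 1, 25 in sATM 1, 27 in vATM 1 and 21 in SpM 1, but 7 in SAM ganglia 3, 1 in Microglia 2 and 0 in SpM 3. After correction the olfactory level was still 16.1 counts per kb in SAM fibers 1 (18.0 raw). It was 6.87 in Microglia 2 (7.21 raw) and 6.58 in SAM ganglia 3 (7.5 raw). In these libraries the 35 genes kept a median of 20.8%, 2.29% and 19.9% of their raw counts. In SAM ganglia 1 the olfactory level went from 0.25 to 0.0543. On raw gene-body counts, introns included, 1 of the 31 genes was called in SAM against the other macrophages. The part of DNA in the fibers levels was not tested.

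Libraries of like background can be set side by side. SAM ganglia 3 and Microglia 2 had 7.5 and 7.21 olfactory counts per kb, and their neuronal sums were 379 and 149 CPM. In the 5 libraries of lowest background, 1 from each group but fibers, the sums were 382 CPM in SAM ganglia 1, 183 in sATM 1, 160 in Microglia 1, 90.7 in vATM 1 and 19.1 in SpM 1. There the raw counts of Stmn2 were 293 in SAM ganglia 1, 94 in sATM 1, 115 in Microglia 1, 19 in vATM 1 and 17 in SpM 1. The olfactory level predicted 13.0, 24.1, 20.1, 18.9 and 38.9 counts for the length of Stmn2 in the same libraries. Raw counts of Npy were 118, 64, 76, 15 and 15, against 1.70, 3.14, 2.63, 2.47 and 5.07 predicted. Raw counts of Th were 27, 14, 28, 5 and 1, against 1.80, 3.32, 2.78, 2.61 and 5.36 predicted. In SAM ganglia 1, sATM 1 and Microglia 1 all 3 genes stood above the DNA level before any correction, while Th and Stmn2 in SpM 1 stood below it. These genes did not stand for all: raw Syt1 was 188 against 198 predicted in Microglia 1 and 3757 against 3850 in SAM ganglia 3. Raw counts were at least 2 times the olfactory level for 29 of 36 genes in SAM ganglia 1, 23 in Microglia 1, 21 in sATM 1, 16 in vATM 1 and 6 in SpM 1. That number was 24 and 8 in SAM ganglia 2 and 3 and 10 and 17 in fibers.

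**Figure D4:**
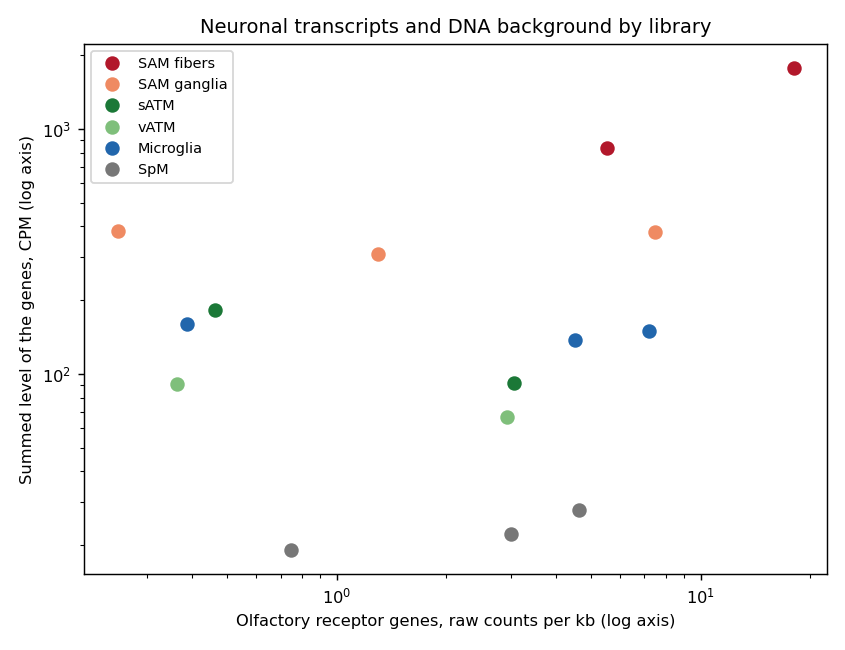
Summed CPM of the 35 genes (vertical, log axis) against raw olfactory receptor counts per kb (horizontal, log axis), 1 point per library, coloured by tissue. The 3 ganglia libraries lie between 308 and 382 CPM at 0.25 to 7.5 olfactory counts per kb, and the 2 fibers libraries are high on both axes.

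Whether the genes kept fixed ratios was described for the 15 genes with at least 20 corrected counts in each of the 5 SAM libraries, in 105 pairs. The SD of the log2 ratio over the 5 libraries had a median of 0.63 (0.10 to 1.51), against a median counting error of 0.22. It was more than 2 times the counting error in 85 pairs and within it in 3 pairs. The counting error leaves out the error of the DNA removal, which was not measured. The median was 0.47 without SAM ganglia 1 and 0.55 to 0.67 without any other single SAM library. It was 0.54 for the 9 genes with at least 50 counts and 0.66 on RPKM.

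The steadiest pairs joined Prph with Uchl1 (SD 0.10) and Npy with Stmn3 (0.14), followed by Npy with Prph (0.23) and Gap43 with Uchl1 (0.24). Gch1 gave 7 of the 8 most variable pairs, up to 1.51 with Pcsk1n, and Pcsk1n with Nefl (1.48) was the other. Centred on the mean of the 15 genes in each library, Gap43 varied by an SD of 0.17, Uchl1 by 0.25, Map1b and Rtn1 by 0.27 and Stmn2 by 0.28. Dbh varied by 0.54, Nefl by 0.76, Pcsk1n by 0.82 and Gch1 by 1.10.

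The ratio of Syt1 to Stmn2 counts was 0.679 and 0.671 in fibers, 0.663, 0.495 and 0.475 in the ganglia libraries, 0.531 and 0.384 in sATM and 0.645 in Microglia 1. It was 0.607 and 0.476 in Microglia 2 and 3, so these values ran from 0.384 to 0.679 in nerve, subcutaneous fat and brain. Before correction, Syt1 was below the count predicted from the olfactory level in Microglia 1 and SAM ganglia 3. The part of DNA in these ratios was not tested. The ratio of Npy to Stmn2 was 1.17 and 1.09 in fibers and 1.03 and 1.08 in SAM ganglia 2 and 3, but 0.413 in SAM ganglia 1. Dbh to Stmn2 was 0.538 and 0.258 in fibers, 0.378, 0.362 and 0.483 in the ganglia libraries, 0.407 and 0.469 in sATM and 0.332 and 0.430 in Microglia 1 and 3. Dbh to Th was 1.48 and 2.05 in fibers, 3.20, 4.04 and 1.45 in ganglia and 1.19 and 1.06 in Microglia 1 and 3.

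SAM ganglia 1, the library of lowest DNA background, departed from the other ganglia libraries in part of the genes. Its Snap25 to Stmn2 ratio was 0.064, against 0.401 and 0.510 in SAM ganglia 2 and 3 and 0.406 and 0.261 in fibers. Its Pcsk1n ratio was 0.116 against 0.670 and 0.390, and its Camk2n1 ratio 0.0783 against 1.03 and 0.384. Camk2a and Nrgn, markers of central excitatory neurons that were not among the 36 genes, were also low there. Camk2a had 5.31 CPM in SAM ganglia 1, 23.1 and 8.63 in SAM ganglia 2 and 3 and 102 and 15.0 in fibers. Nrgn had 6.23, 15.3 and 11.4 CPM in ganglia and 72.3 and 34.8 in fibers. The part of central neuron RNA in these ratios was not tested.

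Other genes broke from Stmn2 between tissues. Rtn1 to Stmn2 was 0.467 to 0.803 in SAM and 6.47 to 10.5 in microglia. Camk2n1 to Stmn2 was 0.0783 to 1.03 in SAM, and 4.13 and 3.75 in Microglia 1 and 3. Gch1 to Stmn2 was 0.0936 to 0.762 in SAM and 1.17 and 5.94 in sATM. Spearman's rho of the 36 genes by RPKM was 0.67 to 0.91 within SAM (median 0.80 over 10 pairs of libraries). Its median was 0.70 between SAM and sATM, 0.64 with microglia, 0.54 with vATM and 0.34 with spleen. Within microglia it was 0.49 and within spleen 0.53. The median between SAM and microglia was thus not below that within microglia. Between SAM and spleen it was below the medians within SAM and within spleen. The median within microglia rested on Microglia 2, a library of high DNA background (0.48 and 0.49), while Microglia 1 and 3 had 0.76. SAM libraries had 0.32 to 0.40 with Microglia 2, 0.72 to 0.80 with Microglia 1 and 0.54 to 0.75 with Microglia 3. Whether the order of the genes differs between tissues was not tested. These correlations are across genes, which share each library's depth and DNA background.

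**Figure D5:**
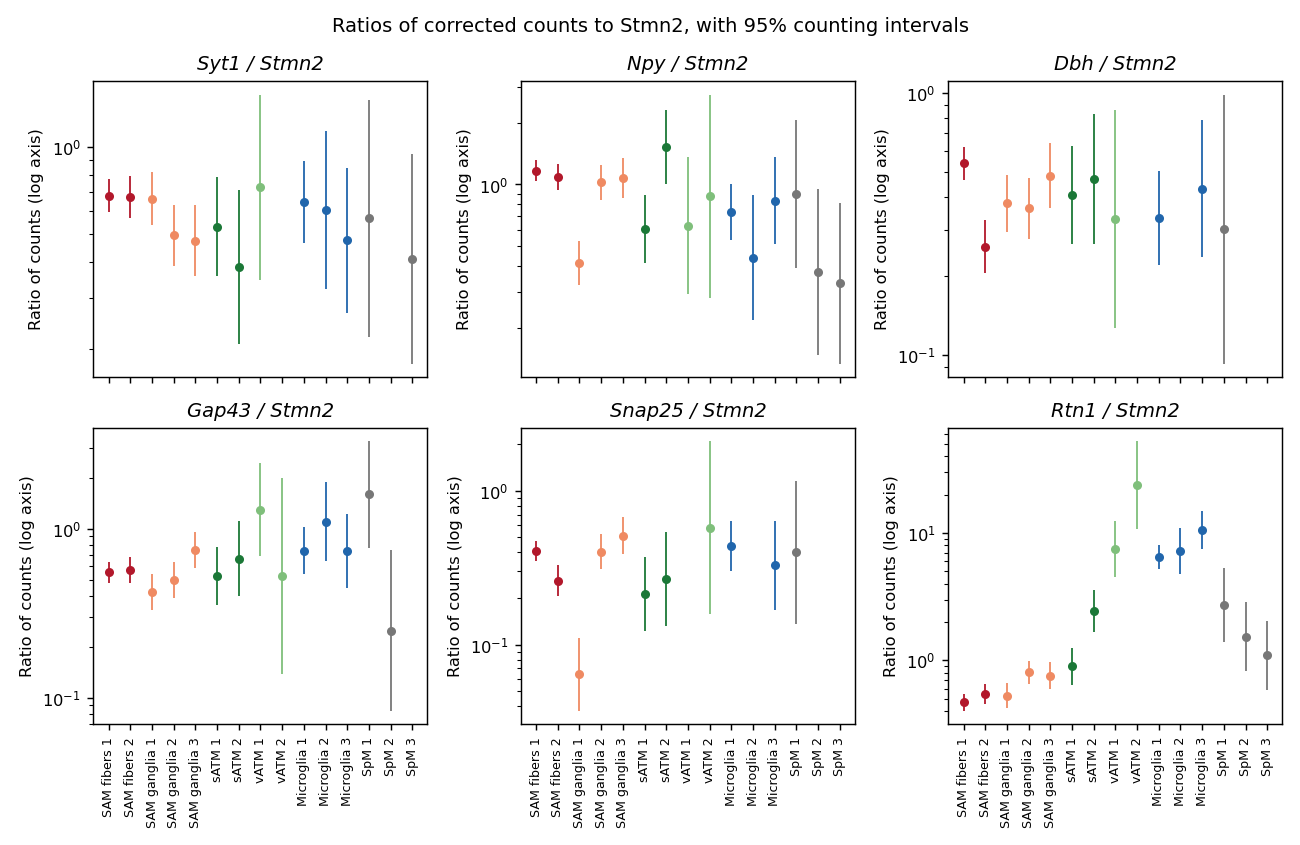
Ratio of corrected counts to Stmn2 (log axis, scales differ between panels) for 6 genes in each library, with 95% intervals for counting error; libraries with a count too low for a ratio are left blank. Syt1 runs from 0.475 to 0.679 in SAM, Dbh differs between the fibers libraries (0.538 and 0.258), Npy and Snap25 drop in SAM ganglia 1 (0.413 and 0.064), and Rtn1 rises from 0.467 to 0.803 in SAM to 6.47 to 10.5 in microglia.

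Per gene length, Npy was the most abundant of the 36 transcripts in the SAM libraries. It took 33.9% and 32.0% of their summed RPKM in fibers and 20.2%, 29.4% and 28.1% in ganglia. Stmn2 took 7.70% to 14.4% in SAM, Gap43 6.16% to 8.88% and Uchl1 5.78% to 7.63%. In microglia Rtn1 led with 26.1% to 35.3% and Npy took 8.70% to 15.4%. In vATM Rtn1 and Gch1 took 15.9% to 32.0% and 26.7% to 28.5%. The RPKM sums were 818 and 485 in fibers, 132 to 246 in the ganglia libraries, 66.8 to 89.1 in microglia and 9.38 to 13.1 in spleen.

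A second list held 30 other genes of the sympathetic programme. Of 21 tested, 12 rose in SAM and none fell (5.71% of all genes called higher), with a median log2 fold change of 3.01. In fibers against sATM 2 of the 21 rose (1.85% of all genes called higher). The list's median was 0.98 in ganglia against microglia and -0.04 in fat against spleen. Those with the smallest p were Cpe, a carboxypeptidase that trims granule peptides (3.57 ± 0.49), Tmod1, a cap of actin filaments (1.44 ± 0.25), Rab3c, a vesicle GTPase (5.33 ± 0.98), and Celf4, a neuronal RNA-binding protein (1.73 ± 0.33). Tmod1 and Celf4 were not particular to SAM. Tmod1 had 26.6 and 45.8 CPM in fibers, 21.3 to 56.3 in ganglia and 37.8 and 32.9 in vATM. Celf4 had 40.1 and 30.4 CPM in fibers, but 16.9 and 14.5 in vATM against 6.62 to 10.6 in ganglia. Slc6a2, the norepinephrine transporter, rose by 3.59 ± 0.89 (edgeR adjusted p = 0.0156), with 21.2 and 5 CPM in fibers and 11.3, 3.32 and 2.01 in ganglia. Slc18a2, the vesicular monoamine transporter, was not called (-0.31 ± 0.70, edgeR adjusted p = 0.792).

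Markers of several other cell types were also highest in fibers. Central neuron genes (14 in the table) summed to 295 and 91.8 CPM in fibers. They summed to 18.5 to 56.8 in ganglia and 14.2 to 34.5 in microglia, so the sum was higher in fibers than in brain macrophages. SAM fibers 1 (295 CPM) also had the highest DNA background, 16.1 olfactory counts per kb after correction. The part of DNA in these sums was not tested. Gad2, a defining enzyme of inhibitory neurons, was at 0 in all 15 libraries, and Gad1 was at most 2.29 CPM. Schwann cell and satellite glia genes summed to 787 to 834 CPM in fibers, 278 to 424 in ganglia and 379 to 445 in microglia. Their sums were 230 to 260 in visceral fat, 138 to 174 in sATM and 40.7 to 66.6 in spleen. Of these genes, Pmp22 alone had 257 and 484 CPM in fibers, 145 to 159 in ganglia and 307 to 340 in microglia. Erythroid genes summed to 1660 to 4640 CPM in fibers, 640 to 896 in ganglia, 207 to 653 in spleen, 139 to 372 in sATM, 94.6 to 142 in microglia and 25.2 to 54.8 in vATM. Fibroblast genes summed to 239 to 318 CPM in fibers, 97.9 to 149 in ganglia and 89.9 to 169 in sATM. They summed to 113 to 158 CPM in vATM and 13.6 to 29 in brain and spleen. Gsn alone had 64.9 and 64.1 CPM in fibers, 54.9 to 94.3 in ganglia, 56.8 and 126 in sATM and 81.1 and 120 in vATM. With 19.2 to 24.2 CPM in spleen, it made up most of the sums outside fibers and brain. The endothelial sum was highest in spleen (50.7 to 66.4 CPM, 3.46 to 34.6 elsewhere), where Pecam1 alone had 61, 65.3 and 44.7 CPM. The other endothelial genes had at most 3.04 CPM in spleen (Flt1 in SpM 3), so that sum was almost wholly Pecam1. Flt1 reached 14.2 CPM in SAM fibers 2 and 20.1 in sATM 1. Lymphocyte genes (50.4 to 128 CPM) and adipocyte genes (32.8 to 104 CPM) overlapped between fibers and fat. Cholinergic and sensory neuron genes summed to 9.58 to 14.6 CPM in fibers, 3.32 to 5.22 in ganglia and 0.952 to 8.7 in microglia. Chat, of cholinergic neurons, was at 0 in all ganglia libraries. Slc18a3, also cholinergic, had 0.231, 0.93 and 3.21 CPM in ganglia and 10.5 and 3.75 in fibers. It had 5.89 CPM in Microglia 2, a library of high DNA background. The part of these cell types in the levels of the 36 genes was not tested.

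Exons of 9 of the 36 genes share bases with an annotated exon on the opposite strand (Cyb561, Pcsk1n, Syp, Phox2a, Hand2, Gata3, Uchl1 and, through a longer Nefm transcript, Nefl and Nefm). The shared stretches run from 95 bases (Phox2a) to 1108 (Nefl and Nefm). The sources used here do not say whether counting used strand, so reads within those stretches cannot be told apart.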

How the data were processed

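Gene expression of sorted macrophages was measured in 15 libraries of 6 tissue groups, taken from the titles of the labels. Per the submitters' processing notes, the tools named are STAR and HOMER and the build is mm10; the sources used here give no versions, settings or strand use. For the main table, estimated counts per gene were deposited after the authors removed DNA contamination, as the deposited table's title states (24084 genes). A second deposited table holds raw counts over gene bodies without that removal (24525 genes), and the last one holds RPKM as deposited by the authors (24414 genes).

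Testing of the rounded estimated counts used edgeR 4.0.16 (R 4.3.3; filterByExpr with a minimum count of 10, TMM factors 0.668 to 1.40, quasi-likelihood F-test). All 15 libraries entered 1 fit with group means, and p-values were adjusted by Benjamini-Hochberg over 15289 genes. Alternatives used DESeq2 1.42.0, limma 3.58.1 on log2(RPKM + 0.1) or log2(RPKM + 1), RLE scaling, other filters, raw counts, and libraries left out. Fold changes on the RPKM scale understate low genes. The 36 genes and the marker lists were chosen with earlier results of these data known. All 36 genes are named; from the second sympathetic list the text names the 4 called genes with the smallest p, Slc6a2 and Slc18a2. Markers of other cell types named singly (Camk2a, Nrgn, Gad1, Gad2, Pmp22, Gsn, Pecam1, Flt1, Chat and Slc18a3) were chosen after their values were seen. Count intervals and the floor of 3 counts cover counting error only. DNA background was the pooled count per kb of 1107 olfactory receptor genes. The fit was tested on simulated data. Promoter sequences are RefSeq, GRCm38.p6.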

Additional observations from a re-analysis of the deposited data

How the results depend on the processing

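In SAM against the other macrophages the 29 calls became 1 on raw counts and ran from 23 to 31 on leaving out 1 library. Fibers against sATM (10) gave 24 with DESeq2, 0 on raw counts, 26 with log2(RPKM + 1) and 3 to 17 on leaving out 1 library. Ganglia against fibers (3) gave 5 with RLE scaling, 11 with DESeq2, 0 on raw counts, 1 with log2(RPKM + 0.1), 14 with log2(RPKM + 1), 0 without the 3 libraries of high DNA background and 1 to 10 on leaving out 1 library. Leaving out those 3 libraries was chosen after seeing the data. Ganglia against microglia (8) gave 13 with DESeq2, 0 on raw counts and 4 to 11. Fat against spleen (8) gave 1 on raw counts, 5 with log2(RPKM + 0.1), 3 with log2(RPKM + 1) and 3 to 9. Microglia against spleen (12) gave 0 on raw counts, 6 with log2(RPKM + 1) and 5 to 14. The cause was not tested. Reversed single values were Nefh in SAM against the other macrophages (-0.10 without the 3 libraries, -0.02 to 4.68 on leaving out 1 library, lowest without SAM fibers 1), Npy in ganglia against fibers (0.16 on raw counts) and Stmn3 on raw counts in fat (-0.39) and microglia (-0.05) against spleen. RLE scaling moved the median of all genes from 0 to 0.28 in fibers against sATM and from 0 to -0.25 in ganglia against fibers, and the genes called higher and lower from 283 and 457 to 374 and 281 and from 435 and 194 to 291 and 287. In SAM against the other macrophages it moved that median from 0.02 to 0.19 and the calls from 873 and 526 to 1094 and 419.

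The replicate numbers did not meet the rule for pairing (17 of 33 same-numbered pairs had a correlation over 0.1, from -0.396 to 0.615, and 8 of 15 libraries correlated best with their own number). Replicate 1 of every group but fibers correlated with each other (0.173 to 0.615 in 10 pairs), and these 5 libraries had the lowest DNA background; SAM fibers 1 had the highest. With a replicate block the 6 counts were 28, 12, 2, 10, 9 and 14, in the order above. Depth limits genes near the floor of 0.249 to 0.897 CPM (3 counts).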
